A study of Mus musculus with 4 samples.

Results

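The genes described here serve antigen presentation, 7 of them on the class I path and 2 on the class II path. They are B2m (beta-2 microglobulin, the light chain), Tap1, Tap2 and Tapbp (peptide transport and loading), Psmb8, Psmb9 and Psmb10 (the catalytic subunits of the immunoproteasome), and, for class II, Cd74 (the chaperone) and Ciita (the transactivator). They were chosen by name, as the rows of each deposited file that carry 1 of these 9 symbols. Of the 33114 named genes, 8 matched by symbol, and Ciita was found by its gene identifier under the older symbol C2ta. The strain fit took the 12413 genes that reached RPKM 1 in 2 or more libraries, and 8 of the 9 were among them, with Ciita below that level. RPKM divides a gene's reads by its length in kilobases and by the sequencing depth.

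The series profiled polyadenylated RNA of flow-sorted thymocytes and concerns the failure of an early T-cell checkpoint and the start of leukaemia in NOD mice that lack Rag1. All mice were Rag1-/-, so the controls carry the same loss as the leukaemia-prone strain, and without Rag1 no T-cell receptor gene can be assembled and thymocytes stop early. The 4 groups were C57BL/6 (B6) Rag1-/- at 4 weeks, C57BL/6 Rag1-/- at 7 weeks, NOD Rag1-/- at 4 weeks and NOD Rag1-/- at 6.5 weeks of age, with 1 library each. The labels do not name the sort markers or say whether a library is 1 animal or a pool, so the spread used below is that between 2 libraries of a strain that differ in age. Values are given with the younger library of a strain before the older one.

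Class I molecules carry peptides of the cell's own proteins to the surface. The proteasome cuts proteins into peptides, the TAP1-TAP2 pair carries these into the endoplasmic reticulum, tapasin (Tapbp) holds the transporter against an empty class I molecule, and the heavy chain leaves for the surface only when it is bound to beta-2 microglobulin and peptide. Interferon gamma raises most of these genes and swaps the standard proteasome subunits Psmb6, Psmb7 and Psmb5 for Psmb9, Psmb10 and Psmb8. Class II molecules use another route, in which CD74, the invariant chain, fills the groove until it is cut away, and CIITA switches the class II genes on. B2m is also a candidate gene of a NOD diabetes locus, and beta-2 microglobulin is needed for diabetes in NOD mice.

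The upstream sequences of B2m and Tap1 are shown because B2m stood furthest below B6 in NOD among the 9 genes, while Tap1 and Psmb9 start from opposite strands of 1 short stretch. Each is the 250 bases before the RefSeq start in build GRCm38.p6, a C57BL/6J sequence, with capitals at every motif match. The motifs were searched on both strands as an interferon-stimulated response element core (GAAA, any 2 bases, GAAA), a gamma-activated site (TTCNNNGAA), a CCAAT box (CCAAT), an NF-kB site (GGGA, any 4 bases, CC) and an X2 box core (TGACG). The B2m stretch lies at chr2:122147437-122147686 on the plus strand and the Tap1 stretch at chr17:34187306-34187555 on the plus strand.

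B2m: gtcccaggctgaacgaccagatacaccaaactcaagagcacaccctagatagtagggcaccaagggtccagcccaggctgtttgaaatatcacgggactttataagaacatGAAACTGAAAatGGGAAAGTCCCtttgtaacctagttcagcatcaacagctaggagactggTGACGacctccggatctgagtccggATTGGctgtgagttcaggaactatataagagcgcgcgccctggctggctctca

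Tap1: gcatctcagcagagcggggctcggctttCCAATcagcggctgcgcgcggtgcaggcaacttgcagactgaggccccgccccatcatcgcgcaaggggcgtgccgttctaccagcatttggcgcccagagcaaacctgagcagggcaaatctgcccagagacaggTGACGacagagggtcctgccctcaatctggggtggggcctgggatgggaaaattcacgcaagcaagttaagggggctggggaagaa

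In the B2m window the response element match spans bases 139 to 130 before the start, and 2 overlapping NF-kB matches on opposite strands follow it. An X2 box match and a CCAAT match on the opposite strand lie closer to the start. The Tap1 window held an X2 box match and a CCAAT match, and no match to the other 3 motifs. Of 32851 RefSeq upstream windows of this length, 2.98% held the response element core, 7.02% the gamma-activated site, 33.8% the CCAAT box, 17.6% the NF-kB site and 17.8% the X2 box core. The Tap1 and Psmb9 starts lie 226 bases apart, so the 2 windows share 225 bases. Upstream windows were used for 6 of the 9 genes (B2m, Tap1, Tapbp, Psmb8, Psmb9 and Psmb10). The response element core was found in the B2m window alone among those 6. These matches are letters of the B6 sequence, not measured sites.

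The recovered depth was 17060000 to 24100000 reads per library, of which 67.0% and 52.6% lay in listed genes and regions in B6 against 63.4% and 61.4% in NOD. B6 week 7 stood apart by this share, and its RPKM values were low for most genes. Over genes that reached RPKM 5 in 1 of the B6 libraries, the median log2 ratio of week 7 to week 4 was -0.38, and -0.10 after TMM scaling, a trimmed-mean rescaling of the libraries. The mean share of reads that map to more than 1 place was 18.8% in NOD week 6.5 and 16.3% in each of the others, over genes at RPKM 5 or above. RNA of the targeted gene, Rag1, was at RPKM 91.7 to 132.9, and the labels do not say which part was removed. All 13 double negative thymocyte markers, among them Il2ra, Ptcra and Cd3e, were at RPKM of 1 or more, with a summed RPKM of 4098 to 5045.

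Levels of the 9 genes ranged over 4 orders of magnitude. Per length, B2m was highest in every library, followed by Psmb8 and Tap2, and B2m held rank 16 and 7 among all named genes by RPKM in B6 against rank 49 and 39 in NOD. In B6 the mean RPKM (± SD, n = 2) was 1390 ± 100.2 for B2m, 281 ± 92.3 for Psmb8, 111 ± 29.9 for Tap2, 90.9 ± 30.4 for Psmb9, 68.7 ± 24.3 for Psmb10, 49.0 ± 20.6 for Tap1 and 39.0 ± 12.3 for Tapbp. The ranges of neighbours from Tap2 down to Tapbp overlapped between the B6 libraries, but the order of these genes was the same within each B6 library. In NOD the mean RPKM (± SD, n = 2) was 579 ± 47.4 for B2m, 264 ± 14.5 for Psmb8, 222 ± 35.7 for Tap2, 75.7 ± 6.55 for Psmb9, 61.0 ± 2.55 for Psmb10, 39.04 ± 3.22 for Tapbp and 38.4 ± 3.995 for Tap1. Of these, only Tapbp and Tap1 overlapped with their neighbour in the NOD order. Cd74 and Ciita were far lower, under RPKM 5 in all 4 libraries.

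**Figure D1:**
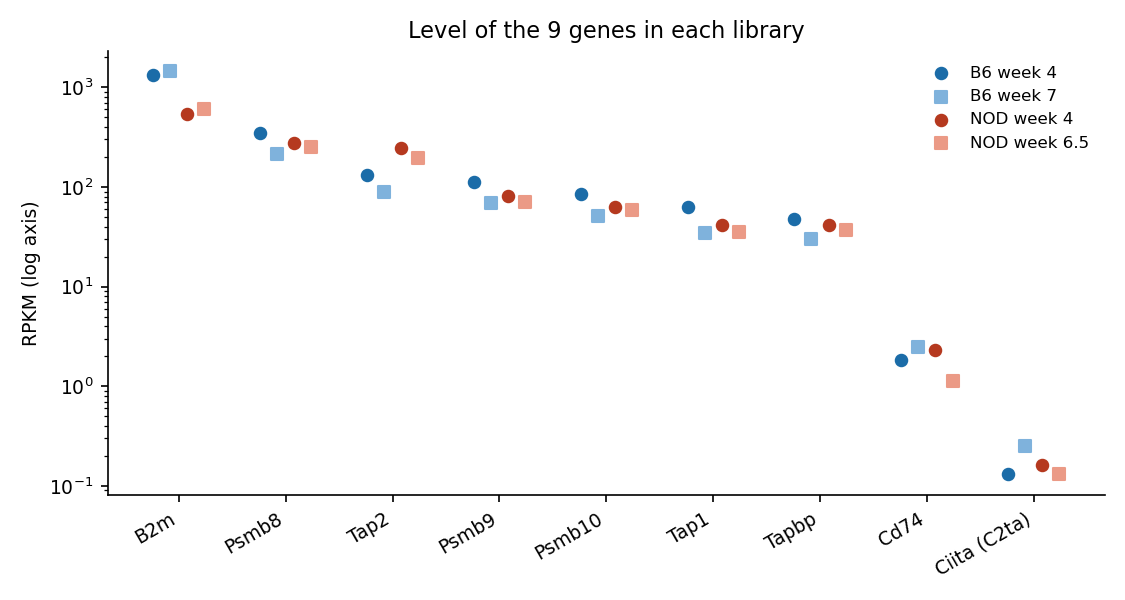
RPKM on a log axis of the 9 genes, ordered by their B6 mean, with 1 point per library (circles at week 4, squares at the later age, blue B6, red NOD). B2m lies at 1319 and 1461 in B6 and at 545 and 612 in NOD, and the Tap2 points lie the other way round, at 132 and 89.8 in B6 and 247 and 196 in NOD.

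B2m, the light chain shared by all class I molecules, was at RPKM 1319 and 1461 in B6 (week 4, then week 7) against 545 and 612 in NOD (week 4, then week 6.5). Both NOD libraries lay below both B6 libraries, and in both strains the older library was the higher one. The mean was 2.40 times as high in B6 as in NOD, a log2 difference NOD minus B6 of -1.26 ± 0.30 (SE, 95% interval -1.97 to -0.56). In limma its adjusted p was 0.0748, above the threshold of 0.05, and its unadjusted p 0.00367. With TMM scaling the adjusted p was 0.0239, with a log2 difference of -1.36, and with quantile normalization it was 0.0669. With 1 library left out, the limma adjusted p was 0.0145 without B6 week 4, 0.0250 without B6 week 7, 0.964 without NOD week 4 and 0.692 without NOD week 6.5. The values rest on 19311, 26638, 8078 and 12660 reads in the same order, of which at most 4% were shared with another place in the genome. Library by library, NOD week 4 stood at 0.413 of B6 week 4 (95% exact interval 0.403 to 0.424, counting error only) and NOD week 6.5 at 0.419 of B6 week 7 (0.410 to 0.428). In bulk RNA, fewer cells of a type and less RNA per cell cannot be told apart.

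Tap2, the second subunit of the peptide transporter, was at RPKM 132 and 89.8 in B6 against 247 and 196 in NOD. Both NOD libraries lay above both B6 libraries. The log2 difference was 1.01 ± 0.30 (SE, 95% interval 0.31 to 1.71), with a limma adjusted p of 0.164 and an unadjusted p of 0.0108. The call was made with TMM scaling (adjusted p = 0.0494, log2 difference 0.91) and with quantile normalization (adjusted p = 0.0202). With 1 library left out, the limma adjusted p was 0.0163 without B6 week 4, 0.105 without B6 week 7, 0.9999 without NOD week 4 and 0.655 without NOD week 6.5. These values rest on 4583 to 11377 reads per library, with at most 6% shared reads. NOD week 4 stood at 1.87 times B6 week 4 (1.81 to 1.93) and NOD week 6.5 at 2.19 times B6 week 7 (2.115 to 2.27).

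Tap1, the first subunit of the transporter, was at RPKM 63.6 and 34.5 in B6 against 41.2 and 35.5 in NOD. The strains overlapped, since both NOD values lay between the 2 B6 values. Its log2 difference was -0.29 ± 0.32 (SE, 95% interval -1.03 to 0.46), with a limma adjusted p of 0.756. Tapbp, the loading chaperone tapasin, was at 47.7 and 30.3 in B6 against 41.3 and 36.8 in NOD. Its NOD values also lay between the B6 values, and its log2 difference was 0.03 ± 0.28 (95% interval -0.62 to 0.68) with a limma adjusted p of 0.972. The interval of Tapbp includes a 1.5-fold difference in either direction, and that of Tap1 a level 2-fold lower in NOD.

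The 3 immunoproteasome subunits had the same order of libraries as Tap1 at their top and bottom, with B6 week 4 highest. Psmb8, the subunit that replaces Psmb5, was at RPKM 347 and 216 in B6 against 274 and 254 in NOD. Psmb9, which replaces Psmb6, was at 112 and 69.5 in B6 against 80.3 and 71.04 in NOD. Psmb10, which replaces Psmb7, was at 85.9 and 51.5 in B6 against 62.8 and 59.2 in NOD. For each of the 3, B6 week 7 was lowest and both NOD values lay inside the range of B6. The log2 differences NOD minus B6 were -0.05 ± 0.32 for Psmb8, -0.22 ± 0.30 for Psmb9 and -0.12 ± 0.30 for Psmb10 (SE), and the limma adjusted p values were 0.961, 0.795 and 0.894. The 95% intervals ran from -0.79 to 0.69, from -0.92 to 0.47 and from -0.82 to 0.57, so a level 1.5-fold lower in NOD lies inside each of them.

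Cd74, the invariant chain of class II, was at RPKM 1.82 and 2.46 in B6 (44 and 74 reads) against 2.33 and 1.12 in NOD (57 and 38 reads). The strains overlapped, with the lowest value in NOD week 6.5, and the log2 difference was -0.23 ± 0.25 (SE, limma adjusted p = 0.750). Ciita, the class II transactivator, was at RPKM 0.13 and 0.25 in B6 against 0.16 and 0.13 in NOD, from 11 to 27 reads, and entered no test. The 95% Poisson intervals of Ciita, which cover counting error only, ran from 0.0625 to 0.224 in B6 week 4 and from 0.163 to 0.359 in B6 week 7, and overlapped among all 4 libraries.

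Because class II genes are typical of B cells, dendritic cells, macrophages and thymic epithelium, markers of these cells are given beside Cd74. The summed RPKM of the 9 B-cell markers was 71.7 and 51.0 in B6 against 40.7 and 54.1 in NOD, most of it from Cd79b and Igh-6 (Ighm), while Ms4a1 and Pax5 were listed at 0 in all 4 libraries. The 10 dendritic cell markers summed to 5.79 to 8.63, of which Ly75 gave 5.18 to 7.95. The other 9 were under RPKM 1 in every library, with 9130211I03Rik (Batf3) listed at 0. The 10 macrophage and myeloid markers summed to 25.3 to 30.2, of which Lyzs gave 21.3 to 25.8, and 8 were under RPKM 1 in every library. The 10 thymic epithelial markers summed to 25.8 to 55.1, of which Tacstd1 (Epcam) gave 13.2 to 34.2 and Cldn4 7.29 to 17.4. Aire reached 2.01 and Ccl25 1.26, while 6 were under RPKM 1 throughout, with Foxn1 and Krt14 listed at 0 in all libraries. The part of these cells in the Cd74 level was not tested.

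In the strain fit, limma called 0 of the 8 genes at an adjusted p under 0.05, where 4.37% of all 12413 genes were called. An unadjusted p under 0.05 was found for 2 of the 8, B2m and Tap2, and for 12.7% of all genes. TMM scaling called both, where it called 5.03% of all genes, and quantile normalization called Tap2, where it called 5.11%. Leaving out B6 week 4 called both, but 27.2% of all genes with them, a share near 2 of 8. Leaving out B6 week 7 called B2m, where 4.13% of all genes were called, and leaving out either NOD library called 0 of the 8. The median log2 difference of the 8 genes was -0.17, and that of all genes tested was 0.096, or 0.012 after TMM scaling. Tap2 was the single gene with both NOD values above both B6 values, where 25.3% of all genes tested have this pattern, and B2m the single gene with both below, where 18.7% have it. In size of difference, 126 of the 12413 genes lay further below B6 than B2m, and 337 lay further above B6 than Tap2.

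**Figure D2:**
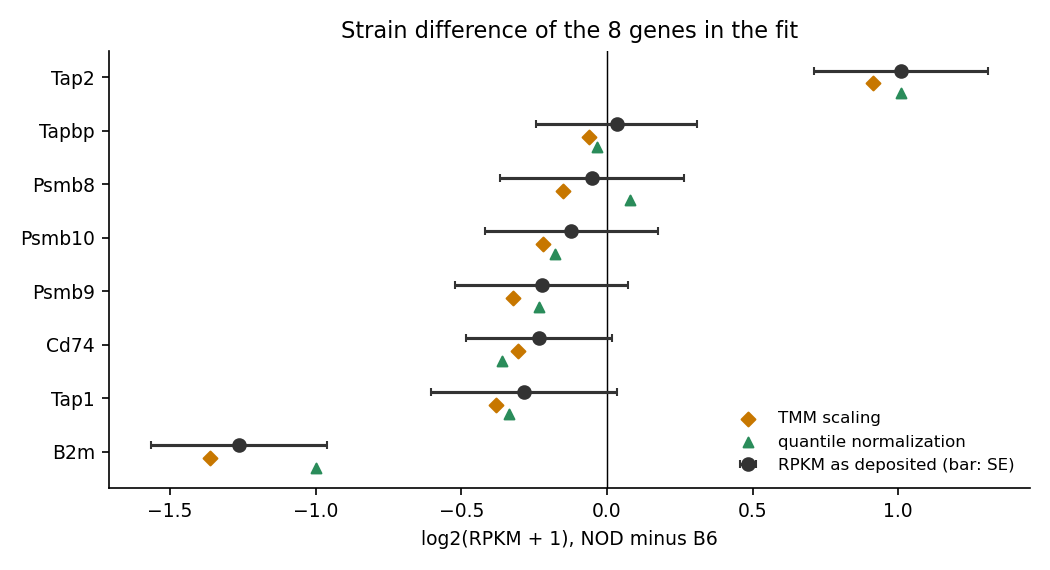
Difference in log2(RPKM + 1), NOD minus B6, for the 8 genes in the strain fit (n = 2 libraries per strain), as black points with SE bars for RPKM as deposited, orange diamonds for TMM scaling and green triangles for quantile normalization. Tap2 stands at 1.01 and B2m at -1.26, and the SE bars of the other 6 reach 0 for RPKM as deposited.

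Ratios between genes within a library do not depend on the factor by which a library is scaled, and are given here as values with no test. The 2 subunits of the transporter were not in the same proportion in the strains. The RPKM of Tap2 was 2.08 and 2.60 times that of Tap1 in B6 against 6.00 and 5.53 times in NOD. The counting intervals of these ratios ran from 1.98 to 2.76 in B6 and from 5.27 to 6.33 in NOD. Tap2 over its other neighbour Psmb8 was 0.381 and 0.416 in B6 against 0.900 and 0.773 in NOD. Psmb9 over Tap1, the pair that shares its upstream stretch, was 1.77 and 2.01 in B6 against 1.95 and 1.999 in NOD, and the strains overlapped. Psmb8 over Psmb10, from different chromosomes, stayed between 4.04 and 4.37, although its NOD values (4.37 and 4.29) both lay above those of B6 (4.04 and 4.199). Psmb8 over Tap1, Psmb8 over Psmb9 and Tapbp over Tap1 were also higher in both NOD libraries, by 1.18, 1.13 and 1.25 times in the mean. B2m over Psmb8 was 3.81 and 6.76 in B6 against 1.99 and 2.41 in NOD. B2m over Cd3g, a T-cell receptor complex gene of like abundance, was 0.884 and 0.981 in B6 against 0.398 and 0.527 in NOD. In both ratios each NOD value lay below each B6 value, and this also held for B2m over Tap2 and B2m over H2-D1. B2m over the class I heavy chain gene H2-K1 went the other way, at 4.11 and 6.18 in B6 against 9.71 and 10.6 in NOD. Up to 29% of the H2-K1 reads and 34% of the H2-D1 reads were shared with other places, which leaves the ratios to these genes uncertain.

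**Figure D3:**
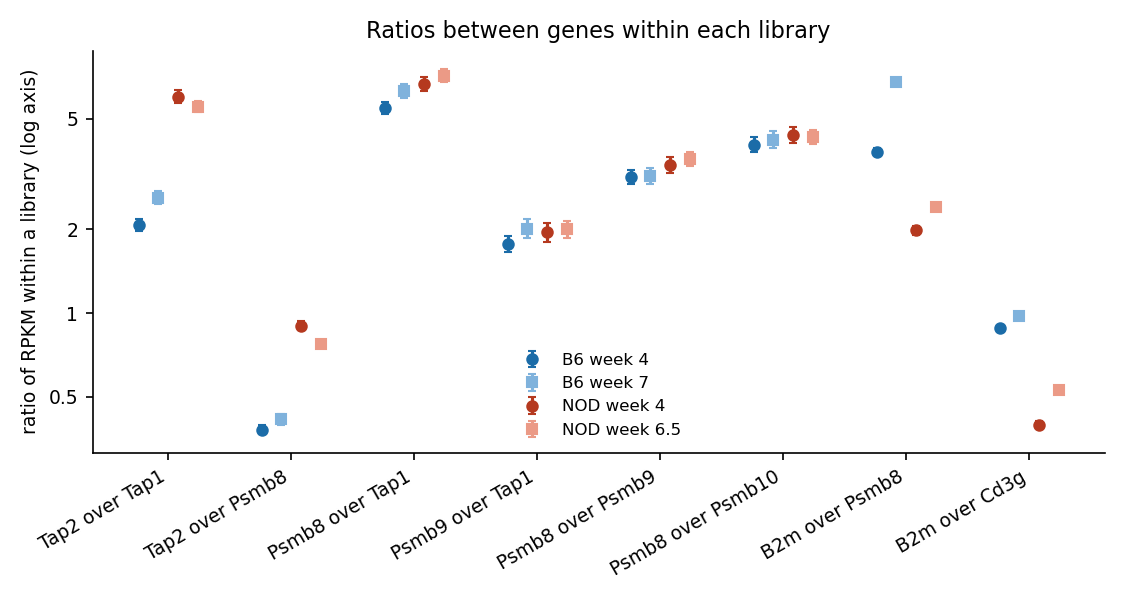
Ratios of RPKM between 2 genes within each library on a log axis, with 95% exact intervals for counting error (circles week 4, squares later age, blue B6, red NOD). Tap2 over Tap1 lies at 2.08 and 2.60 in B6 and 6.00 and 5.53 in NOD, while Psmb9 over Tap1 lies between 1.77 and 2.01 in all 4 libraries.

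Ratios of immune over standard subunits were also taken within each library, at the level of RNA, and the subunits in proteasomes were not measured. Psmb9 over Psmb6 was 0.992 and 0.921 in B6 against 0.832 and 0.720 in NOD, lower in both NOD libraries. Psmb10 over Psmb7 was 0.791 and 0.507 in B6 against 0.719 and 0.625 in NOD, with the NOD values inside the B6 range. Of the Psmb7 reads, 22% to 27% were shared with other places. Psmb8 over Psmb5 was 4.15 and 4.80 in B6 against 6.30 and 6.07 in NOD, higher in both NOD libraries, but 70% to 75% of the Psmb5 reads were shared with other places, which leaves this ratio uncertain. Psmb11 (listed as 5830406J20Rik), the cortical epithelial subunit, was at RPKM 0.18 or less in every library.

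Of the 9 genes, 5 lie on chromosome 17, and 4 of these stand side by side in the MHC class II region, in the order Psmb9, Tap1, Psmb8 and Tap2 on GRCm38.p6, used for gene order only. Along the 13 protein-coding genes from H2-Oa to H2-Eb1, 10 entered the fit. H2-Oa, the alpha chain of the inhibitor of class II loading, rose in NOD, at RPKM 3.82 and 2.41 in B6 against 10.4 and 9.18 in NOD (log2 difference 1.41 ± 0.23 SE, limma adjusted p = 0.0166, and 0.138 with no filter on low values). H2-Ab1, the class II beta chain, fell in NOD, at 5.16 and 2.41 in B6 against 0.99 and 0.25 in NOD (log2 difference -1.54 ± 0.33 SE, limma adjusted p = 0.0474). That call was lost with a pseudocount of 0.1 (adjusted p = 0.0683), with no filter on low values (0.282), among genes with under 10% shared reads (0.0671) and without B6 week 4 (0.0548). The 3 genes between H2-DMb1 and Tap2, namely Psmb9, Tap1 and Psmb8, overlapped between strains, as did Brd2, H2-DMa and H2-Eb1. Tap2, next to Psmb8, did not, and was higher in both NOD libraries, as were H2-Oa, H2-DMb2 and H2-DMb1. H2-Ab1 was lower in both, as were H2-Ob and H2-Aa, which lay below the filter. Over all genes tested, 25.3% had both NOD values above both B6 values and 18.7% both below. The 13 genes were chosen as neighbours after the values of the 9 genes were seen.

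**Figure D4:**
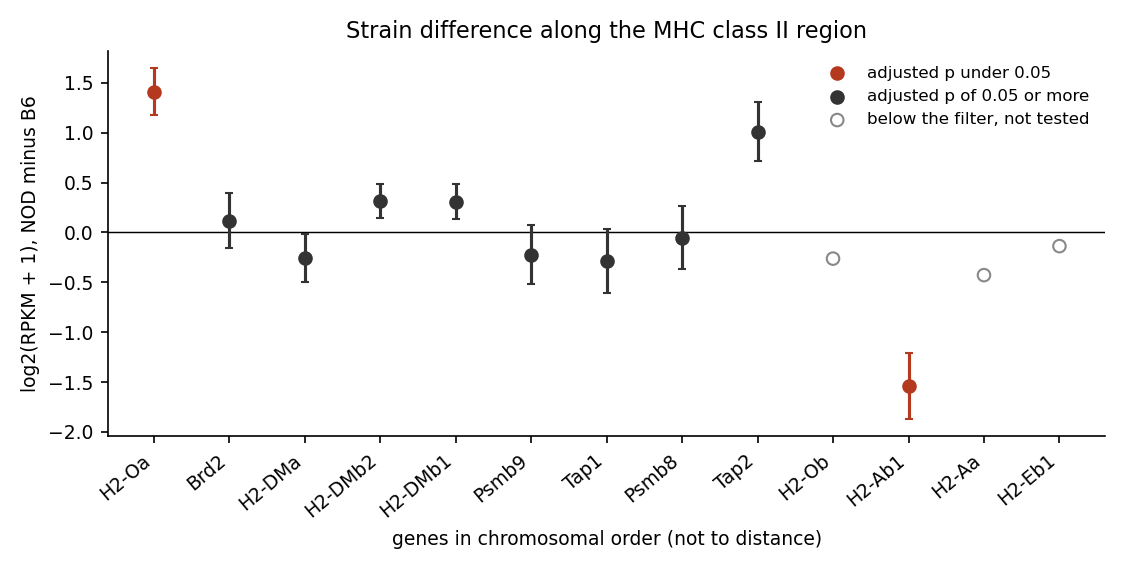
Difference in log2(RPKM + 1), NOD minus B6, of 13 protein-coding genes of the MHC class II region in chromosomal order, with SE bars (n = 2 libraries per strain) for the 10 tested genes, red where the adjusted p was under 0.05, and open circles for genes below the filter. H2-Oa at 1.41 and Tap2 at 1.01 stand above 0, H2-Ab1 at -1.54 below, and Psmb9, Tap1 and Psmb8 lie near 0.

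The wider path was covered by 9 lists with 82 entries, of which 81 were found and 73 entered the fit. In limma 4 of the 65 tested genes outside the 9 were called higher and 2 lower in NOD, where 2.78% of all genes tested were called higher and 1.59% lower. These were H2-T3, H2-T10, H2-Q2 and H2-Oa, which rose, and H2-K1 and H2-Ab1, which fell. Among the 9 tested partner chains of B2m, 3 rose and 1 fell. H2-K1, a classical class I heavy chain, was at RPKM 321 and 236 in B6 against 56.1 and 57.9 in NOD (log2 difference -2.25 ± 0.27 SE, limma adjusted p = 0.00373, and 0.0645 with no filter on low values). H2-D1, another classical heavy chain, was at 263 and 185 in B6 against 141 and 140.4 in NOD (limma adjusted p = 0.403). H2-Q2 was at RPKM 0.42 and 0.68 in B6 (8 and 16 reads) against 7.01 and 9.30 in NOD. Its call was lost with no filter on low values (limma adjusted p = 0.0529). Part of the reads was shared, up to 29% for H2-K1, 34% for H2-D1, 59% for H2-Q2 and 63% for H2-T10, so these values are uncertain. H2-T3 was at RPKM 0.05 and 0.11 in B6 against 114 and 166 in NOD. Its shared reads were 7% and 11% in NOD. In B6 they were 52% and 77%, of only 2 and 5 reads, so H2-T3 also fell outside the limit of 10%. Among genes with under 10% shared reads H2-Oa was the 1 list gene called, where 2.24% of all such genes were called.

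No gene was called by limma in the other lists of loading, trimming and proteasome genes, where 4.37% of all genes tested were called. Among the 8 members of the loading complex list, the calreticulin gene Calr had the largest difference after Tap2, at RPKM 138 and 84.8 in B6 against 147 and 191 in NOD (log2 difference 0.63, limma adjusted p = 0.494), and the list median was 0.067, or -0.030 with TMM scaling. Among 8 trimming genes, Thop1 had 0.62, the endoplasmic aminopeptidase gene Arts1 (Erap1) -0.57 and Lnpep -0.35, with a list median of 0.10, or 0.0082 with TMM scaling. Arts1 was at 30.8 and 34.2 in B6 against 21.2 and 21.9 in NOD, so that the strains did not overlap (limma adjusted p = 0.310). The 6 immunoproteasome and activator genes had a median of -0.20, or -0.30 with TMM scaling. Pomp, the assembly factor, was at -0.35 and the activator subunit Psme2 at -0.25. The 14 standard core genes had a median of -0.19, or -0.28 with TMM scaling, with Psmb5 at -0.51, Psma2 at -0.31 and Psma3 at -0.27. Shared reads reached 75% for Psme2 and Psmb5, 36% for Psma2 and 90% for Psma3, so the values of these genes are uncertain. In these 4 lists 2 genes, Tap2 and Arts1, had an unadjusted p under 0.05, where 12.7% of all genes tested did.

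Among regulators and class II genes limma called only H2-Oa and H2-Ab1. Of all genes tested it called 4.37%, and 12.7% had an unadjusted p under 0.05. Among 7 tested regulators of the class II and class I genes, including the Rfx and Nfy subunits that bind these promoters, 0 were called in limma and 0 had an unadjusted p under 0.05, and the largest differences were Nfya at 0.38, Creb1 at -0.31 and Rfxap at -0.26. Among 8 tested class II genes, H2-Oa rose and H2-Ab1 fell, and H2-DMb2, a chain of the peptide exchanger, was at 0.32 (limma adjusted p = 0.522). Among 12 tested genes of the interferon gamma pathway 0 were called in limma and 1 had an unadjusted p under 0.05. That gene, Gbp2, a guanylate-binding protein induced by interferon, was at RPKM 19.3 and 21.4 in B6 against 10.8 and 10.98 in NOD (log2 difference -0.84 ± 0.21 SE, limma adjusted p = 0.0813, and 0.0403 with TMM scaling). Igtp was at -0.47 and the receptor gene Ifngr1 at -0.43. Irf1, an activator of class I genes, overlapped between strains, at 52.2 and 36.0 in B6 against 41.8 and 39.9 in NOD.

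**Figure D5:**
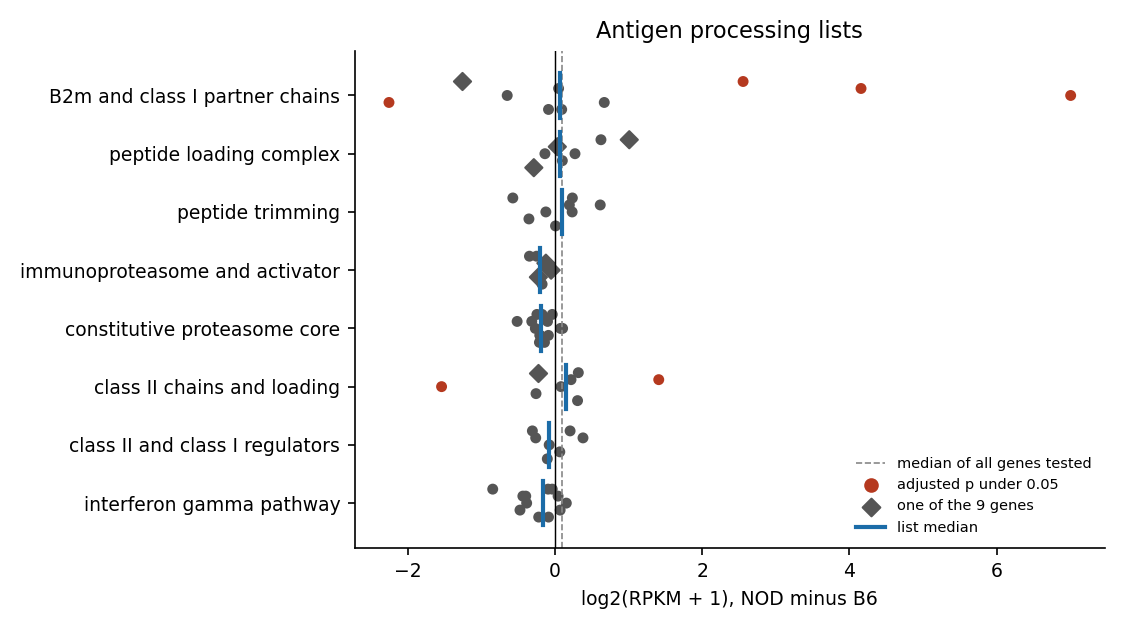
Difference in log2(RPKM + 1), NOD minus B6, of the 73 tested genes in 8 lists (n = 2 libraries per strain), red where the adjusted p was under 0.05, diamonds for the 8 tested genes of the set, blue bars for list medians and a dashed line for the median of all genes tested. Called genes lie in 2 lists, the B2m partner chains and the class II genes, and the other lists sit between -0.84 and 1.01.

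At a single age each comparison set 1 library against 1, with no replicate check and no test. At week 4, 1 of the 7 genes at RPKM 5 or above was 2-fold lower in NOD, B2m with a log2 ratio of -1.27, where 2.04% of all such genes were 2-fold lower. None of the 7 was 2-fold higher, where 2.23% were, and Tap2 had a log2 ratio of 0.90. Of NOD week 6.5 against B6 week 7, B2m was 2-fold lower at -1.25, where 1.61% were lower, and Tap2 2-fold higher at 1.12, where 5.91% were higher. With TMM scaling the later log2 ratio was -1.49 for B2m and 0.89 for Tap2, which then was not 2-fold higher. With quantile normalization the week 4 log2 ratio was -0.85 for B2m and 1.12 for Tap2, so that there Tap2 and not B2m was 2-fold apart, and the later ratio of Tap2 was 0.90. The RPKM ratios of the other 5 genes lay below 1 at week 4 and above 1 at the later age. For Tap2 the ratio also differed, at 1.87 (95% exact interval 1.81 to 1.93) and 2.19 (2.115 to 2.27), or 1.92 and 1.86 after TMM scaling. Tap1 stood at 0.648 of B6 at week 4 (95% exact interval 0.608 to 0.691) and at 1.03 at the later age (0.964 to 1.10), and Psmb8 at 0.792 (0.759 to 0.826) and 1.18 (1.13 to 1.23). After TMM scaling the later ratios were 0.876 for Tap1 and 0.9996 for Psmb8.

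With age, no gene of the 7 was 2-fold apart in either strain, where 0.14% of genes were 2-fold higher at the older age in B6 and 0.682% in NOD. In B6, 6 of the 7 had lower RPKM at week 7 than at week 4, with log2 ratios from -0.86 for Tap1 to -0.55 for Tap2, where 83.7% of all genes at RPKM 5 or above were lower and 3.82% were 2-fold lower. Relative to the median of -0.38 of all such genes, these are smaller shifts, and after TMM scaling they ran from -0.57 for Tap1 to -0.25 for Tap2. B2m was the exception, at 0.15, or 0.45 after TMM scaling. In NOD the same 6 genes had lower RPKM at week 6.5 than at week 4, from -0.33 for Tap2 to -0.08 for Psmb10, where 62.6% of genes were lower and 0.139% were 2-fold lower, and B2m was again the exception at 0.17. Of the 2 low genes, Cd74 at NOD week 6.5 stood at 0.481 of NOD week 4 (95% exact interval 0.308 to 0.733) and at B6 week 7 at 1.35 of B6 week 4 (0.918 to 2.01).

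Genes with the pattern most like that of 3 of the genes were sought by Euclidean distance of log2(RPKM + 1), centred over the 4 libraries, among genes at RPKM 5 or above in some library with under 10% shared reads. Nearest to B2m, of 6503 genes, were Pde3b (distance 0.22), Spo11 (0.26) and AI451557 (0.26). Pde3b, a phosphodiesterase gene, was at RPKM 13.0 and 11.7 in B6 against 3.99 and 4.44 in NOD. Nearest to Tap1 were LOC100043272 (0.045), Daxx (0.050) and Exosc6 (0.067), and Daxx was at 24.8 and 13.5 in B6 against 16.7 and 14.2 in NOD. Nearest to Cd74 were Wdr78 (0.14), Ypel2 (0.19) and Gbp6 (0.19). With 4 libraries these distances describe the libraries only.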

How the data were processed

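Polyadenylated RNA of sorted Rag1-/- thymocytes was sequenced in 4 libraries, 1 per strain and age. The aligner Bowtie 0.12.1 and the build mm9, a C57BL/6J sequence, are named in the submitters' processing notes. The deposited values are, per the file headers, an RPKM per gene, its length and the fraction of its reads that map to more than 1 place (the share of shared reads). Neither the counting program nor any use of strand is given in the sources used here, so overlapping genes cannot be told apart. Reads of NOD transcripts with strain differences were placed on B6 sequence, and the effect on these values was not tested.

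Depth was recovered as the depth at which RPKM of short genes (at most 0.6 kb) best gave whole reads: 98.8% to 100% lay within 0.1 reads, where 20% do by chance. Intervals are exact (Clopper-Pearson or Poisson) at 95% and cover counting error only. For the strain comparison log2(RPKM + 1) was fitted in limma 3.58.1 (R 4.3.3), with strain as the only term, a variance trend, two-sided tests and Benjamini-Hochberg adjustment over all 12413 genes. A fold on this scale understates the change of low genes. With 2 libraries per strain, p-values rest on the spread between these libraries, which differ in age. Limma also pulls each gene's variance towards a trend over all genes, so an SE is not set by that gene's own spread alone. For B2m, whose log2 change with age was 0.15 in B6 and 0.17 in NOD, the SE was 0.30. The fit was also run on simulated libraries without an age difference or library shift, so that run does not show how it behaves on these libraries. Pairs of libraries were compared without a test, with 2-fold counts over genes that reached RPKM 5 in 1 of the pair. TMM scaling was an unweighted trimmed mean of log ratios (30% and 5% trimmed).

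The genes, lists and tests were chosen with earlier results of these data known. From each list, every called gene and the 3 with the largest absolute difference are named, and others (Irf1, H2-D1 and genes in ratios) were chosen after their values were seen. Nlrc5 is not analysed here. Sequences are RefSeq upstream windows of GRCm38.p6, and those of Tap2, Cd74 and Ciita are not used here.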

Additional observations from a re-analysis of the deposited data

Results flagged for a closer look

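The age change had opposite signs in the strains for 2 of the 9 genes, each strain with 1 library per age, and the difference was not tested. The share of all genes with opposite signs is not given here. For Cd74 the log2 change of RPKM + 1 was -0.65 in NOD and 0.30 in B6, from 38 to 74 reads per library. The exact counting interval of its RPKM ratio, older over younger, was 0.3083 to 0.7328 in NOD. In B6 it was 0.9175 to 2.008, which includes 1. For C2ta (Ciita) the log2 change was -0.04 in NOD and 0.15 in B6, from 11 to 27 reads per library. Its counting intervals, 0.3745 to 1.812 in NOD and 0.9461 to 4.402 in B6, both include 1. The sign difference of C2ta is thus within counting error, as is the B6 change of Cd74.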

How the results depend on the processing

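B2m kept its direction under all 11 alternatives, with log2 differences from -1.36 to -0.998 under the 7 that keep every library and from -1.35 to -1.18 when 1 library was left out. Its limma adjusted p ran from 0.0145 to 0.964, and it was called with TMM scaling (-1.36, adjusted p = 0.0239), without B6 week 4 and without B6 week 7. Tap2 also kept its direction under all 11, from 0.73 to 1.29 when 1 library was left out, and was called with TMM scaling (0.91), with quantile normalization (1.01) and without B6 week 4 (1.29, adjusted p = 0.0163). The number of the 8 genes called was 2 with TMM scaling (5.03% of all genes called), 1 with quantile normalization (5.11%) and 0 to 2 with 1 library left out, where the 2 came without B6 week 4 (27.2%). The small differences of the other genes changed sign: Tapbp to -0.063 with TMM scaling and -0.034 with quantile normalization, and Psmb8 to 0.080 with quantile normalization. With 1 library left out, Tapbp ran from -0.29 to 0.35, Psmb8 from -0.39 to 0.29, Tap1 from -0.72 to 0.15, Psmb9 from -0.57 to 0.12, Psmb10 from -0.49 to 0.24 and Cd74 from -0.56 to 0.092, and Rfxap from -0.53 to 0.0087, the latter without B6 week 4. The cause of these changes was not tested.

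The number of all genes called was 542, and 122 with no filter on low values, 239 with RPKM of 5 or more in 2 libraries, 191 among genes with under 10% shared reads, 1005 with age class as a replicate block and 468 to 3371 with 1 library left out, with 3371 reached without B6 week 4. The 1 block fit rests on 1 residual degree of freedom, and B2m (adjusted p = 0.0994) and Tap2 (0.0744) were not called in it. When a strain was left with 1 library, that library was assumed to vary like the other strain. Called genes of the lists numbered 6, and 2 with no filter on low values, 1 with under 10% shared reads and 6 to 13 with 1 library left out. In pairs of libraries, genes 2-fold apart at week 4 numbered 379, and 599 with no filter. Between the B6 ages they numbered 340, and 517 with a pseudocount of 0.1, 134 with TMM scaling and 114 with quantile normalization. Of NOD week 6.5 against B6 week 7, the number of the genes 2-fold apart was 2, and 1 with TMM scaling and 1 with quantile normalization. Of the values of single genes in pairs, 37 moved by more than their counting interval, 14 with TMM scaling and 23 with quantile normalization. Depth limits Cd74 and Ciita, with at most 74 reads per library.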

Other observations

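The neighbours of the other genes were chosen after the main values were seen. Around B2m on chromosome 2, 4 of 12 other protein-coding genes entered the strain fit and limma called 0 of them. Patl2, listed as 4930424G05Rik, whose annotated span holds B2m, was at RPKM 0.24 to 0.43. Eif3s1 (Eif3j1) was at 8.89 and 8.87 in B6 and 4.95 and 4.95 in NOD, with up to 89% shared reads and a limma adjusted p of 0.107. Limma called 0 of the 6 tested genes around Tapbp and 0 of the 3 around Psmb10. Of all genes tested it called 4.37%.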
